A study of Homo sapiens with 9 samples.

Results

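The 9 genes described here encode proteins of the antioxidant and detoxifying response that transcription factor NRF2 controls: AKR1B10, AKR1C1, AKR1C2, AKR1C3, NQO1, GCLM, GCLC, TXNRD1 and SLC7A11. They were taken by symbol from the 19869 genes of an expression table of H460 cells carrying H460-ERT2-RUNX3-MT(K94/171R), called the K94/171R line from here on. All 9 were found by their Ensembl identifiers, and all 9 passed a level of 1 FPKM (fragments per kilobase of transcript, scaled to the number of fragments mapped) in every library. The study sequenced RNA from 3 H460 lines at 0, 8 and 16 h, with 1 library for each line and time. Cells had been kept without serum for 24 h and then received 10% serum with 1 μM 4-OHT, the tamoxifen metabolite that activates proteins fused to the ERT2 hormone-binding domain. NCI-H460 is an established large cell lung cancer line from a pleural effusion, and the labels give inactive RUNX3 for the H460 libraries. H460 had no ERT2 fusion, H460-ERT2-RUNX3-WT had wild-type RUNX3 fused to ERT2, and the K94/171R line had a fusion whose lysines at both positions were replaced by arginine. The study describes stimulation with 10% serum, with or without 4-OHT. Because the sample names of every line carry Tam, all libraries after 0 h, the control line's among them, were taken to have received both. All lines were stable transfectants at passage 11, and neither the promoter of the fusion gene nor the number of clones is given in the sources used here. With 1 library per condition there was no replicate error, so no test was run and every difference is between single libraries.

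NRF2, encoded by NFE2L2, is a transcription factor whose protein is held low in unstressed cells by KEAP1, the adaptor of a CUL3 ubiquitin ligase. When KEAP1 is inactivated, by electrophiles or by mutation, NRF2 accumulates, pairs with small MAF proteins and binds antioxidant response elements near its target genes. H460 is widely used as a lung cancer line with a mutated KEAP1. Of the 9 genes, the AKR genes encode aldo-keto reductases, which reduce aldehydes and ketones with NADPH, and NQO1 encodes a quinone reductase. GCLC and GCLM encode the catalytic and modifier subunits of glutamate-cysteine ligase, the rate-limiting enzyme of glutathione synthesis. TXNRD1 encodes the cytosolic thioredoxin reductase. SLC7A11 is not an enzyme but the transporter subunit of system xc-, which exchanges cystine for glutamate and so supplies cysteine for glutathione.

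The genes lie on 7 chromosomes (GRCh37, GENCODE v44 annotation). AKR1C1 (chr10:5005445-5025475, plus strand), AKR1C2 (chr10:5029967-5060223, minus strand) and AKR1C3 (chr10:5077546-5149878, plus strand) are neighbours within 144 kb. AKR1B10 lies at chr7:134212319-134226164 (plus strand), NQO1 at chr16:69740899-69760571 (minus strand) and TXNRD1 at chr12:104609557-104744085 (plus strand). GCLM lies at chr1:94350755-94375012, GCLC at chr6:53362139-53481768 and SLC7A11 at chr4:139085251-139163503, all on the minus strand.

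The AKR1C genes are close copies, which bears on every value given for them. The 969 coding bases of AKR1C1 and AKR1C2 differed at 19 positions (98.0% identity), whereas AKR1C3 was 91.4% identical to AKR1C1 and 91.0% to AKR1C2. The last 60 coding bases before the stop codon (bases 910 to 969) are shown because AKR1C1 and AKR1C2 cannot be told apart there. Capitals mark bases that differ from AKR1C1, and AKR1C3 has 11 of them.
AKR1C1: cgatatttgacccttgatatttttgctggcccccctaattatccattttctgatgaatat
AKR1C2: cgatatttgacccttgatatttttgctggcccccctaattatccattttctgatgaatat
AKR1C3: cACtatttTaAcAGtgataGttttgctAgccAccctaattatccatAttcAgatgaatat
The first 60 coding bases are shown because they hold 1 base that separates AKR1C2 from AKR1C1 and 8 that separate AKR1C3.
AKR1C1: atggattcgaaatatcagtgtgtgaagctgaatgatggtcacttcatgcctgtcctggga
AKR1C2: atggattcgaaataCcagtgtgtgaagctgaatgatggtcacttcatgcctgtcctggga
AKR1C3: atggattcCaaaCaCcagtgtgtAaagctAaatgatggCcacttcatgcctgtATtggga
Of the 895 windows of 75 bases along the AKR1C1 coding sequence, 33.4% occurred unchanged in AKR1C2 and 7.71% in AKR1C3. Windows found in no other gene of AKR1C1 to AKR1C4 made up 64.5% of AKR1C1, 59.2% of AKR1C2 and 84.7% of AKR1C3. How reads from the shared stretches were divided is not given in the sources used here, and the split between AKR1C1 and AKR1C2 is therefore uncertain. AKR1B10 shared 8.24% of its 874 windows with its neighbour AKR1B15 and none with the AKR1C genes.

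The 9 genes were expressed at high levels in all 3 libraries of the K94/171R line. NQO1 had 2829, 2908 and 2682 FPKM at 0, 8 and 16 h, which placed it at ranks 23, 14 and 20 of 19869 genes. AKR1B10 had 774, 794 and 986 FPKM, with ranks of 132, 128 and 92. TXNRD1 had 567, 623 and 454 FPKM, with ranks of 167, 155 and 192. These genes thus stayed within the highest 1% of the table at every time.

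The AKR1C genes followed. AKR1C3, which reduces ketosteroids and prostaglandins, had 432, 387 and 340.0 FPKM at 0, 8 and 16 h. AKR1C1, which inactivates progesterone, had 402, 292 and 274 FPKM. AKR1C2, the reductase closest to AKR1C1, had 151, 149.8 and 133 FPKM. Each of the 3 was lowest at 16 h, and their summed level was 985, 829 and 747 FPKM.

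The glutathione genes were lower. SLC7A11 had 126, 92.3 and 86.5 FPKM, GCLM had 54.2, 63.1 and 39.7 FPKM, and GCLC had 24.2, 21.6 and 20.4 FPKM. The modifier subunit was above the catalytic subunit in each library, by 2.24-fold at 0 h, 2.92-fold at 8 h and 1.95-fold at 16 h. GCLC had the lowest rank of the 9 genes in each library, from 3296 at 0 h to 3791 at 16 h.

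Ordered by mean FPKM, the genes ran NQO1, AKR1B10, TXNRD1, AKR1C3, AKR1C1, AKR1C2, SLC7A11, GCLM and GCLC. Of the 8 pairs of neighbours in this order, the ranges over the 3 libraries overlapped in 1, AKR1C3 and AKR1C1. In 8 of the 9 genes the highest library was less than 1.5 times the lowest, and GCLM had the widest range at 1.59-fold. NQO1 had the narrowest at 1.08-fold. FPKM is corrected for transcript length, so that levels can be compared between genes.

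**Figure D1:**
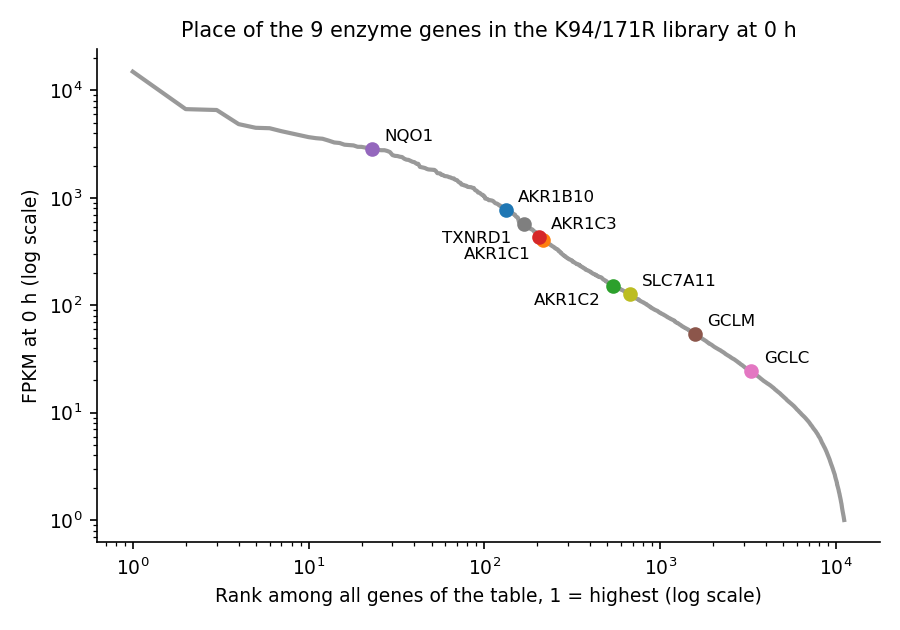
FPKM of each gene against its rank in the K94/171R library at 0 h, both on log axes. The grey line holds all genes of FPKM 1 or more, and the points are the 9 enzyme and transporter genes. NQO1 is at rank 23 and GCLC at rank 3296, and 7 of the 9 are within the first 1000 ranks.

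Together the 9 genes held 0.888%, 0.906% and 0.886% of all FPKM at the successive times. NQO1 alone made up 52.8%, 54.5% and 53.5% of their sum. Near copies outside the 9 were read as well. AKR1C4, the next gene of the chromosome 10 cluster, had 0.0637 FPKM at 0 h and was listed at 0 at 8 and 16 h. AKR1B15, beside AKR1B10 on chromosome 7, had 0.0779, 0.152 and 0.233 FPKM. These near copies were therefore almost without signal in the same libraries in which AKR1B10 and AKR1C3 were at 340.0 FPKM or more.

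**Figure D2:**
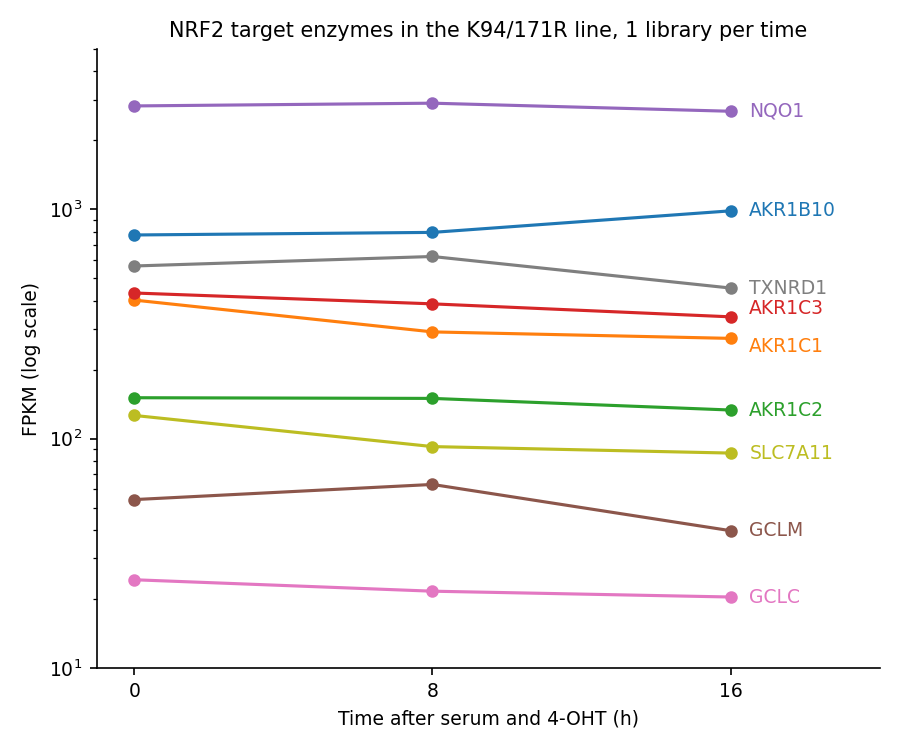
FPKM (log axis) of the 9 genes in the K94/171R line at 0, 8 and 16 h, with 1 library per time and no replicate error. The order is kept at every time, with NQO1 at the top (2682 to 2908 FPKM) and GCLC at the bottom (20.4 to 24.2 FPKM), and AKR1B10 alone ends above its start.

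None of the 9 genes passed a log2 change of 2 at 8 h, the size the study used for responsive genes, and none passed 1. The change is log2 of the later FPKM over that at 0 h, with 0.05 added to both. Over the whole table, 1.49% of genes passed 2 in either direction and 7.31% passed 1. Among the 11252 genes that reached 1 FPKM in either library compared, called expressed genes below, the shares were 0.613% and 3.76%. A count of 0 of 9 is close to this background. The median log2 change of the 9 genes at 8 h was -0.01, and the median over 10753 genes at or above 1 FPKM in all 3 libraries was 0.01. FPKM is a share of the library, and fewer cells expressing a gene cannot be told apart from less RNA per cell.

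The genes did not move together at 8 h, when 5 of the 9 (4 with libraries rescaled to the same sum of FPKM) were lower by any amount, beside 49.2% of expressed genes. AKR1C1 was at 72.6% of its 0 h level (log2 change -0.46) and SLC7A11 at 73.1% (-0.45). AKR1C3 was at 89.7% and GCLC at 89.1% (log2 changes of -0.16 and -0.17). The levels of AKR1C2, AKR1B10 and NQO1 stayed within 3% of those at 0 h, and the sign for AKR1C2 turned from -0.01 to 0.03 under that rescaling. TXNRD1 was at 110.0% (0.14) and GCLM at 116% (0.22) of the 0 h level. The differences were small beside those of other genes of this level. The central 90% of the 5758 genes with FPKM of at least 10 in all libraries lay between -0.46 and 0.58. AKR1C1, at -0.461, was just outside that range, and the other 8 were inside it.

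At 16 h, again none of the 9 genes passed a log2 change of 2 or 1, where 1.32% and 6.47% of all genes did so (0.512% and 2.74% of the 11325 expressed genes). Their median log2 change was -0.32, and that of the 10753 genes above was -0.01. By any amount, 8 of the 9 were lower at 16 h than at 0 h, and with libraries rescaled to the same sum of FPKM 7 of the 9 were, since NQO1 turned from -0.08 to 0.02. On that scale the median was -0.23 for the 9 genes and 0.08 for the 10753, a distance close to that on the original scale. Over all 11325 expressed genes, 51.8% were lower by any amount. The changes at 8 and 16 h share the library at 0 h, so they are not independent of each other.

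AKR1C1 stood at 68.1% of its 0 h level at 16 h (log2 change -0.56), the largest change among the 9 genes. SLC7A11 stood at 68.5% (-0.55), GCLM at 73.2% (-0.45), AKR1C3 at 78.7% (-0.35) and TXNRD1 at 80.1% (-0.32). GCLC stood at 84.1% (-0.25), AKR1C2 at 88.4% (-0.18) and NQO1 at 94.8% (-0.08). AKR1B10 was the exception at 127% of its 0 h level (0.35). AKR1C1, SLC7A11 and GCLM were outside the central 90% of genes with FPKM of at least 10, which ran from -0.42 to 0.39 at 16 h. AKR1B10 was inside that range, at percentile 93.7.

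**Figure D3:**
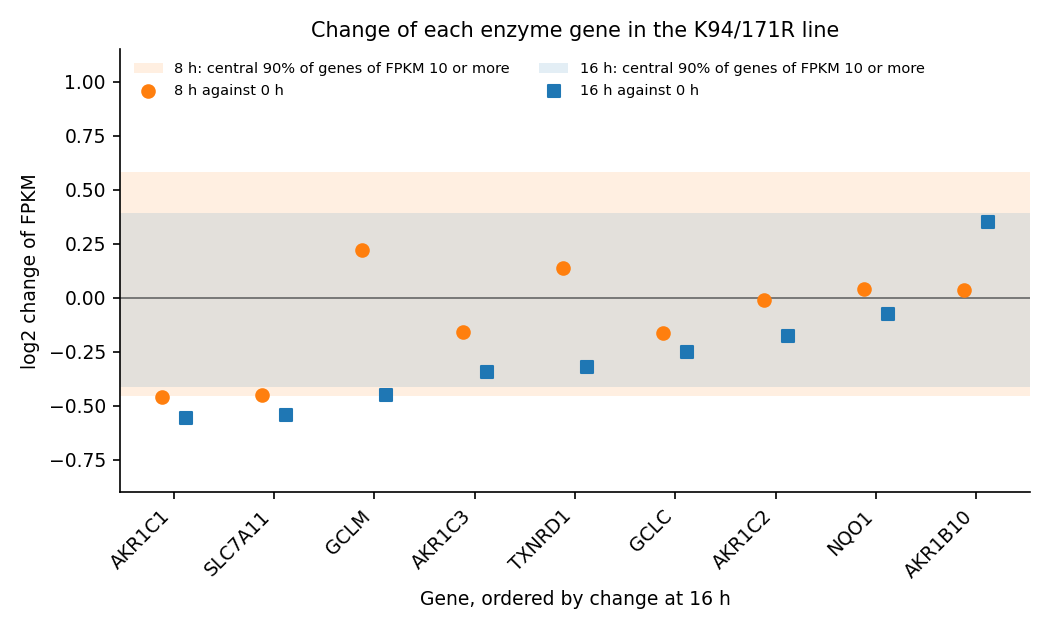
log2 change of FPKM against 0 h for the 9 genes in the K94/171R line (circles, 8 h; squares, 16 h; 1 library each). Shading shows the central 90% of the 5758 genes with FPKM of at least 10, from -0.46 to 0.58 at 8 h (orange) and from -0.42 to 0.39 at 16 h (grey-blue, where both overlap), and 8 of the 9 squares lie below 0.

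The aldo-keto reductases thus diverged in these libraries. The ratio of AKR1B10 to AKR1C1 was 1.92 at 0 h, 2.72 at 8 h and 3.60 at 16 h. Summed, AKR1C1, AKR1C2 and AKR1C3 stood at 84.2% of the 0 h level after 8 h (log2 change -0.25) and 75.8% after 16 h (-0.40). Because FPKM divides by the length of each transcript, the sum is not free of how shared reads were split. The ratio of AKR1C1 to AKR1C2, which rests on that split directly, was 2.67, 1.95 and 2.05 at the successive times. The sum of the AKR1C genes and AKR1B10 was 1759, 1624 and 1733 FPKM.

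The time courses took different forms. AKR1C1 and SLC7A11 were lower by 8 h and differed little from 8 to 16 h (log2 change of -0.09 in each). GCLM, TXNRD1 and NQO1 were highest at 8 h and lowest at 16 h, with log2 changes from 8 to 16 h of -0.67, -0.46 and -0.12. For NQO1 this rests on a 1.08-fold range. With libraries rescaled to the same sum of FPKM its change at 16 h against 0 h was 0.02, so 16 h was not its lowest. The share of all genes with this order was not worked out. The 16 h level of GCLM was 62.8% of that at 8 h, which was the widest step between successive times among the 9 genes. AKR1C3 was lower at each successive time. The 3 genes whose pair of changes lay nearest to AKR1C1, among 6336 candidates with a mean FPKM of at least 10, were SLC7A11 (distance 0.014), CARHSP1 (0.016) and OAS1 (0.027). CARHSP1, an RNA-binding protein, had 50.6, 36.4 and 34.6 FPKM. OAS1, an interferon-induced sensor of double-stranded RNA, had 96.7, 69.1 and 65.1 FPKM. The likeness rests on 3 libraries.

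The regulators of the pathway were read in the same libraries. NFE2L2 had 51.0, 50.7 and 50.2 FPKM at 0, 8 and 16 h, a flat course. KEAP1 had 32.7, 35.6 and 25.2 FPKM, with log2 changes of 0.12 at 8 h and -0.38 at 16 h. NFE2L1, a relative of NRF2, had 76.5, 75.6 and 66.6 FPKM. Of 10 regulators, 9 had FPKM of at least 1, none passed a change of 1, and their median change was -0.01 at 8 h and -0.14 at 16 h. RUNX3 had 2.12, 0.712 and 2.11 FPKM in the line that carries the K94/171R fusion, and whether reads from the fusion gene were counted there is not given.

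Other NRF2 target genes and further genes of the same systems were grouped in 6 lists of 59 genes, called the NRF2 lists. Of these, 56 had FPKM of at least 1 in some library. The lists go by system, so a gene such as TXNIP is included without being taken as an NRF2 target. Their median log2 change was -0.04 at 8 h and -0.09 at 16 h, beside 0.00 and -0.01 over 11390 genes selected in the same way. A change of 1 was passed by 1 gene upwards and 1 gene downwards at 8 h, and by none at 16 h. At 16 h 37 of the 56 were lower by any amount, beside 51.8% of expressed genes. Rescaling to the same sum moved all genes upwards together, to 27 of 56 lower and a median of 0.005 in the lists, beside a median of 0.08 over the 10753 genes.

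The thioredoxin list held both a stable core and the widest change. TXN, thioredoxin itself, had 2875, 2537 and 2754 FPKM, and PRDX1, a peroxidase that it reduces, had 2798, 2845 and 2429 FPKM. TXNIP, which binds and inhibits thioredoxin, had 70.5, 12.7 and 54.2 FPKM. It was thus much lower at 8 h alone, with a log2 change of -2.47, and was the 1 gene of the lists past a change of 2. Of the 7 genes, 6 were lower at 16 h than at 0 h, with a median of -0.20, and 5 after rescaling, where TXN turned. Over all expressed genes, 51.8% were lower by any amount at 16 h before rescaling.

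The NADPH list, which holds the enzymes that regenerate the cofactor of the reductases above, was lower by small amounts. All 6 genes were lower than at 0 h at both times (5 of 6 after rescaling). Over all expressed genes, 49.2% were lower by any amount at 8 h and 51.8% at 16 h before rescaling. The medians of the list were -0.09 at 8 h and -0.38 at 16 h, or -0.06 and -0.29 after rescaling. TKT, the transketolase of the pentose phosphate pathway, had 654, 578 and 517 FPKM.

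In the haem and iron list, FTL and FTH1, the ferritin chains that store iron, were among the highest genes of the table. FTL had 14967, 14997 and 17053 FPKM and FTH1 had 3414, 3179 and 3393 FPKM. HMOX1, the inducible haem oxygenase, had 36.7, 74.5 and 24.7 FPKM. Its log2 change was 1.02 at 8 h and -0.57 at 16 h, so it was highest at 8 h and lowest at 16 h, as GCLM and TXNRD1 were. SQSTM1, the autophagy receptor that competes with NRF2 for KEAP1, had 779, 1490 and 747 FPKM, with a log2 change of 0.94 at 8 h that stayed under 1. UCHL1, the other high gene of its list and a ubiquitin hydrolase, had 739, 634 and 612 FPKM.

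Glutathione enzymes and phase II genes included highly expressed transferases and dehydrogenases. GSTP1, a glutathione transferase, had 811, 791 and 871 FPKM, and MGST1, its membrane-bound counterpart, had 666, 707 and 595 FPKM. None of the 14 expressed genes of that list passed a change of 1, and their medians were -0.08 and -0.03. ALDH3A1, an aldehyde dehydrogenase, had 1836, 1394 and 1222 FPKM, a log2 change of -0.59 at 16 h. EPHX1, the microsomal epoxide hydrolase, had 427, 437 and 440.1 FPKM. The 15 expressed genes of the detoxification and efflux list had medians of 0.16 and 0.04, and none passed 1.

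**Figure D4:**
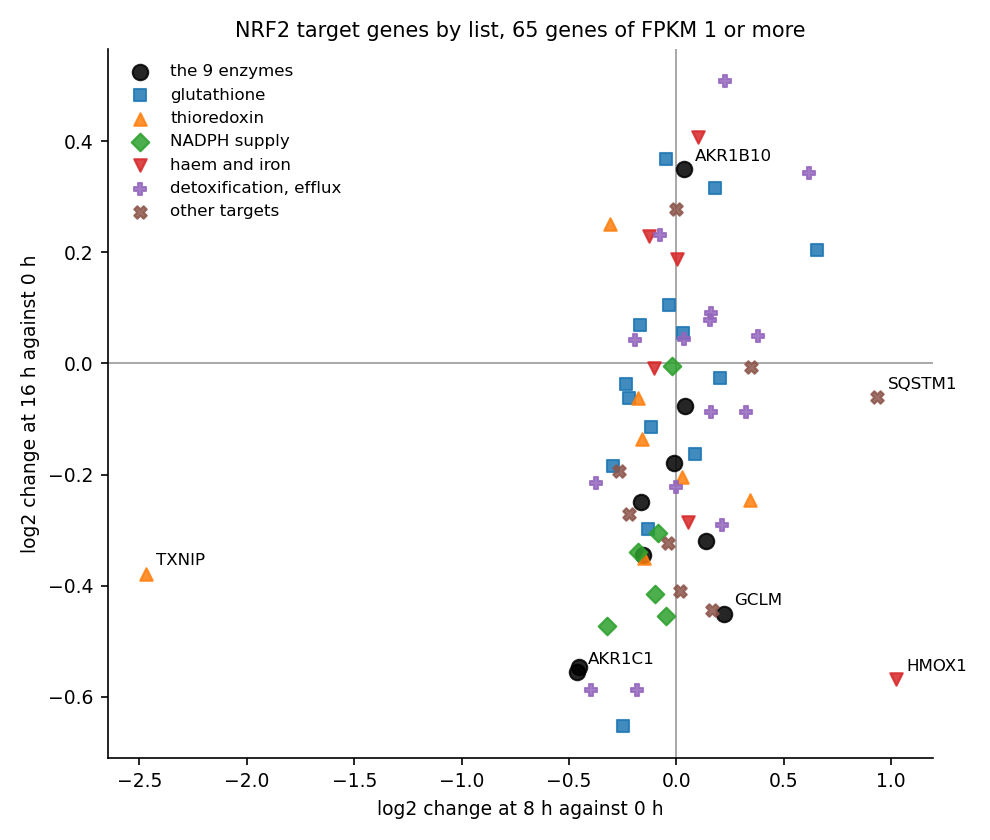
log2 change at 8 h (x axis) and at 16 h (y axis), both against 0 h, in the K94/171R line for the 9 genes (black) and the 56 expressed genes of the 6 NRF2 lists, 1 library per time. Most points lie within 0.7 of 0 on both axes, and TXNIP (-2.47 at 8 h), HMOX1 (1.02) and SQSTM1 (0.94) stand apart along the x axis.

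Genes outside the NRF2 lists gave the setting. Among 3 expressed aldo-keto reductases not in the set, AKR1B1, the aldose reductase, had 207, 186 and 168 FPKM and AKR1A1, the aldehyde reductase, had 103, 77.1 and 93.9 FPKM. Antioxidant genes that are not classical NRF2 targets included PRDX3 (369, 353 and 338 FPKM) and PRDX4 (360.2, 333 and 354 FPKM), and none of the 6 expressed genes passed a change of 1. CAT, the catalase gene, was listed at 0 in all 3 libraries. SLC7A11 is also a target of ATF4, the factor of the amino acid response. Of the 10 genes of an ATF4 list 8 were lower than at 0 h at each time (7 and 8 after rescaling). Their medians were -0.21 and -0.33. Before rescaling, 49.2% of expressed genes were lower by any amount at 8 h and 51.8% at 16 h. ATF4 had 324, 301 and 227 FPKM and SHMT2, a mitochondrial enzyme of serine use, had 179, 177 and 205 FPKM. CHAC1, which degrades glutathione, was the 1 gene of that list past a change of 1, with 1.72, 1.10 and 0.500 FPKM.

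The markers of the culture were mixed. The keratins KRT8 and KRT18 of simple epithelia had 662 and 593 FPKM at 0 h, but the defining epithelial genes EPCAM and CDH1 were at or near 0 (0 and 0.0227 FPKM at 0 h). KRT18 stood at 353 FPKM at 16 h (log2 change -0.75), so that it moved with the lower level of 8 of the 9 genes at that time. Of the leukocyte markers, PTPRC and CD3E were at or near 0, and CD68 (56.9 FPKM) and CD14 (5.44 FPKM) were not. The 5 fibroblast markers summed to 7.77 to 11.3 FPKM, with COL3A1 at 6.17 and PDGFRB at 3.20 FPKM at 0 h, and the 3 endothelial markers found summed to at most 0.0409 FPKM, with VWF at 0.0284 and KDR at 0.0125 FPKM at 16 h. The part of these genes in the results was not tested.

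Promoter sequence was examined for the letters of the antioxidant response element, which NRF2 and small MAF proteins bind. RefSeq promoter windows (GRCh38.p14, 250 bases before to 50 after a start site) were at hand for 7 of the 9 genes, with 9 start sites in all, and AKR1B10 and SLC7A11 were without an entry. The core TGACNNNGC was searched on both strands and occurred in 3 of these 9 windows, those of GCLM and both starts of TXNRD1, and in 13.3% of all 35116 windows of the same length. GCLM and TXNRD1 were highest at 8 h and lowest at 16 h. NQO1, whose window did not hold the core, had this order only before libraries were rescaled to the same sum. Genes of the NRF2 lists with the core took several courses. CBR1 had the same order as GCLM, with log2 changes of 0.21 at 8 h and -0.29 at 16 h. IDH1 was lower at both times (-0.32 and -0.47) and GSTA4 higher at both (0.18 and 0.31). Whether the core goes with any time course was not tested. The matches are shown on the strand that carries the core, with the core in capitals.
GCLM, chr1:93909446-93909474 (34 bases before the start, plus strand): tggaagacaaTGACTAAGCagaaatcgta
TXNRD1, chr12:104215670-104215698 (99 bases before the first start, plus strand): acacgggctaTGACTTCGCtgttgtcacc
TXNRD1, chr12:104215761-104215789 (8 bases before the same start, minus strand): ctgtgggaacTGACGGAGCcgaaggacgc
TXNRD1, chr12:104286920-104286948 (102 bases before the second start, minus strand): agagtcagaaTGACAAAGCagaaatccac
Among regulators, KEAP1 holds the same core letters as GCLM, and its window is shown for that reason.
KEAP1, chr19:10502784-10502812 (31 bases before the start, plus strand): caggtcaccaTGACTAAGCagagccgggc
The windows of GCLC, AKR1C1, AKR1C2, AKR1C3 and NQO1 did not hold these letters, which says only that they are absent from the 300 bases searched. In the 6 lists, 16 of 63 windows (25.4%) held the core. The form TGACTCAGC, which begins with the letters of the AP-1 site TGACTCA and was in 0.561% of all windows, was in 4 of the 63, of which 2 are shown, for GSTP1 among the genes named above and for SLC3A2, the partner chain of SLC7A11.
GSTP1, chr11:67583736-67583764 (66 bases before the start, plus strand): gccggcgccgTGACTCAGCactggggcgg
SLC3A2, chr11:62881652-62881680 (37 bases before the start, plus strand): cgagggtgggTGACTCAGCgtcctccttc
SLC3A2, the heavy chain that pairs with SLC7A11 at the membrane, had 175, 196 and 129 FPKM (log2 changes of 0.16 and -0.44), and GSTP1 had log2 changes of -0.03 and 0.10. The other genes with this form, ME1 and PIR, had log2 changes of -0.05 and -0.45 (ME1) and of -0.27 and -0.19 (PIR). Among the genes with this form, GSTP1 alone was above its 0 h level at 16 h.

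In the other 2 lines none of the 9 genes could be read. Their table of 24331 genes uses identifiers without symbols, and the 1124 that could be paired with a symbol, all on chromosome 1, hold none of the 9. The pairs came from a shortened copy of the study's supplement that reached almost only genes annotated on the plus strand of that chromosome, so the 9 genes in H460 and H460-ERT2-RUNX3-WT cells were not analysed here. The pairing did name 8 genes of the 6 NRF2 lists. Their changes were computed within each table, and levels were not compared between tables.

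These neighbours in function differed by line at 16 h. In H460-ERT2-RUNX3-WT cells, 4 of the 8 were past a log2 change of 2 downwards, and in H460 and K94/171R cells none was. The library of H460-ERT2-RUNX3-WT at 16 h stood apart as a whole: 7.2% of 11930 expressed genes were past 2 downwards and 7.27% upwards (14.5% in all), against 0.224% and 0.5% in H460 at 16 h. Without that library, none of the 8 was past 1 downwards in H460-ERT2-RUNX3-WT cells at 8 h, where 3.79% of 11555 genes were. With 1 library per condition, the difference between lines was not tested.

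EPHX1 had 302, 229 and 40.6 FPKM at 0, 8 and 16 h in H460-ERT2-RUNX3-WT cells and 273, 271 and 296 FPKM in H460 cells. Its log2 change at 16 h was -2.90 in the former and 0.12 in the latter, and 0.04 in the K94/171R line. GSTM1 had 72.6, 59.2 and 13.5 FPKM in H460-ERT2-RUNX3-WT cells and 80.6, 74.8 and 82.0 FPKM in H460 cells. The low value was again confined to the 16 h library of the wild-type fusion.

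GSTM4 had 41.2, 34.3 and 5.50 FPKM in H460-ERT2-RUNX3-WT cells and 48.6, 47.2 and 59.8 FPKM in H460 cells. GSTM2 had 7.66, 6.42 and 0.799 FPKM, against 8.43, 10.9 and 9.89 FPKM. The log2 changes at 16 h were -2.42 for GSTM1, -3.18 for GSTM2 and -2.89 for GSTM4 in H460-ERT2-RUNX3-WT cells, and -0.30, -0.04 and 0.05 in the K94/171R line. The GSTM genes are related neighbours that may share reads, which was not measured here, so they are not taken as independent observations.

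PGD, which makes NADPH in the pentose phosphate pathway, had 508, 533 and 255 FPKM in H460-ERT2-RUNX3-WT cells, 533, 515 and 546 FPKM in H460 cells and 628, 586 and 471 FPKM in the K94/171R line. Its log2 changes at 16 h were -0.99, 0.04 and -0.42, none past 1. PRDX6 and MGST3, a peroxiredoxin and a microsomal glutathione transferase, had log2 changes at 16 h of -0.14 and -0.21 in H460-ERT2-RUNX3-WT cells. In H460 cells these were -0.03 and 0.22, and in the K94/171R line -0.14 and -0.06. By any amount, 7 of the 8 list genes were lower at 16 h in H460-ERT2-RUNX3-WT cells (median -1.71), beside 2 of 8 in H460 (0.08) and 6 of 8 in K94/171R cells (-0.10). Medians over all genes at or above 1 FPKM in all 3 libraries of the line were 0.02, 0.02 and -0.01 in that order. The share of all genes lower by any amount was not worked out for H460-ERT2-RUNX3-WT and H460. The GSTM genes among the 8 are not taken as independent.

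TXNIP ran the other way. It had 18.6, 38.9 and 65.9 FPKM in H460-ERT2-RUNX3-WT cells, 22.5, 12.7 and 15.6 FPKM in H460 cells, and the dip at 8 h in the K94/171R line given above. The log2 changes at 8 h were 1.06, -0.83 and -2.47 in that order, and at 16 h 1.82, -0.53 and -0.38. Outside the NRF2 lists, AKR1A1 had log2 changes at 16 h of -0.19 in H460-ERT2-RUNX3-WT, 0.77 in H460 and -0.13 in K94/171R cells. PHGDH, the first enzyme of serine synthesis, had -0.12, 0.40 and -0.24 at that time. SESN2, a stress-induced regulator of mTORC1, had 4.12, 1.11 and 0.26, and ATF3, a stress-induced transcription factor, had 6.29, 1.41 and -0.79.

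**Figure D5:**
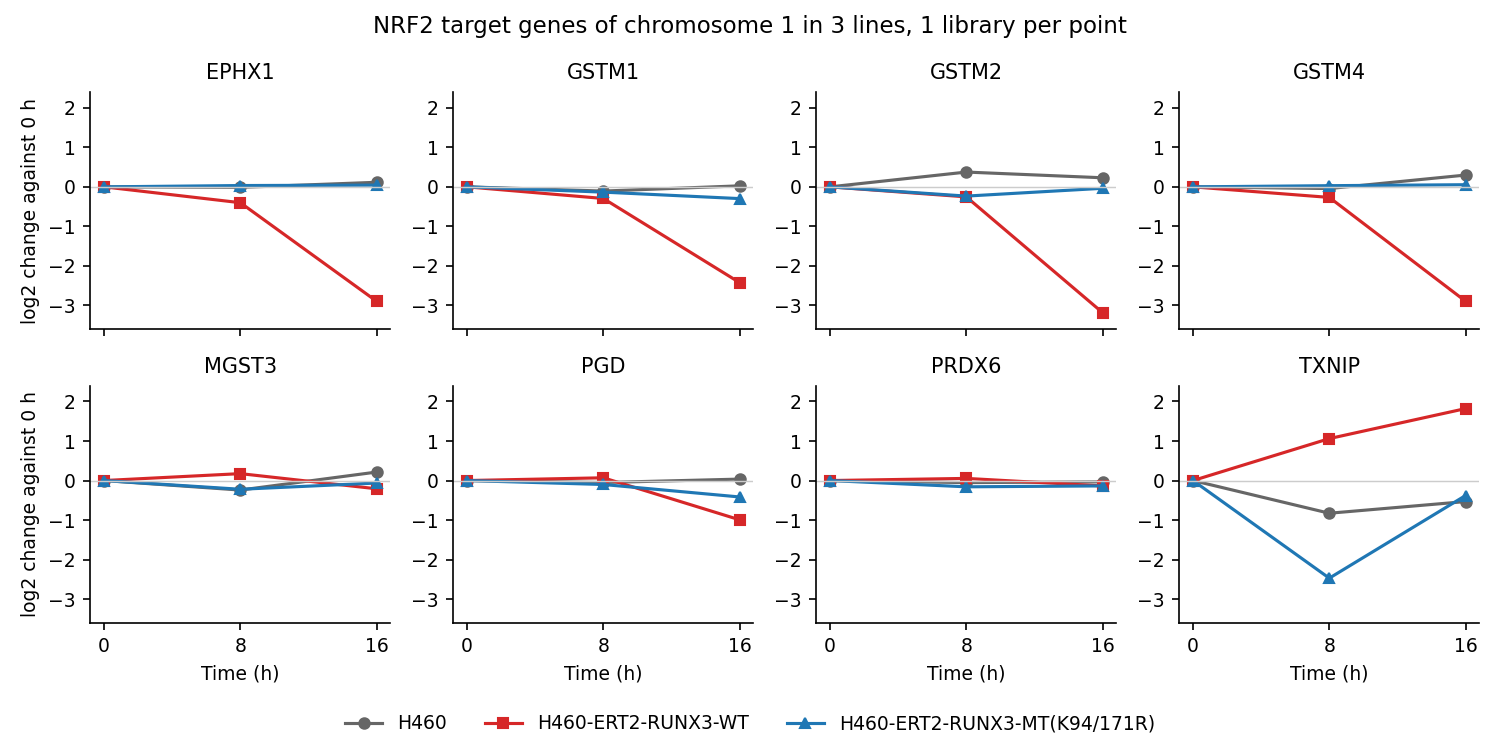
log2 change against 0 h (y axis) at 0, 8 and 16 h for the 8 genes of the NRF2 lists that could be named in all 3 lines, with 1 library per point. EPHX1, GSTM1, GSTM2 and GSTM4 lie between -3.18 and -2.42 at 16 h in H460-ERT2-RUNX3-WT cells (red) and within 0.3 of 0 in H460 (grey) and K94/171R cells (blue).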

How the data were processed

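RNA was sequenced on a NextSeq500 after TruSeq Stranded mRNA preparation, 1 library for each of 3 lines and 3 times (9 libraries). Reads were trimmed (Cutadapt), aligned to hg19 (STAR) and quantified with the Cufflinks package by the authors, and the submitters' processing notes name STAR 2.5.0 and Cuffdiff 2.2.1. The authors deposited FPKM values for each gene, in 2 separately made tables. The annotation, the use of strand and the handling of multiply mapped reads are not given in the sources used here. Both tables were used, with columns matched to samples by name.

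Of 19869 identifiers in the table of the K94/171R line, 19494 matched a symbol. Changes are log2((FPKM + 0.05)/(FPKM at 0 h + 0.05)), computed in Python 3 with numpy and pandas and tested on simulated data. The pseudocount hardly affects genes of this level but shrinks changes of low genes. The depth per library is unknown. Ratios of the lowest values between libraries put depth relative to 0 h at 1.03 (8 h) and 0.988 (16 h), a rough value from 27 and 37 genes at the most frequent ratio. A listed 0 is not taken as absence. AKR7L, SOD2 and PECAM1 were in the lists but were not matched to a row and were not analysed here.

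The 9 genes, the lists and the marker genes were chosen with earlier results of these data known. All 9 genes were named with their values. From each list the genes past a change of 1 with FPKM of at least 1, and the 2 with the highest mean FPKM, were named, as were RUNX3, NFE2L2 and KEAP1, the 3 genes nearest to the most changed of the 9, and every list gene readable in the other lines. SLC3A2, ME1, PIR, CAT, the markers EPCAM, CDH1, PTPRC and CD3E and the neighbours AKR1C4 and AKR1B15 were named after their values were seen. The same holds for CBR1, IDH1 and GSTA4. Single values of some list genes are not reported here. In the other table, names came from the identifier and symbol pairs of the study's supplement, and no value was taken from it. Coding sequences came from GENCODE v44 transcripts on GRCh37 and promoter windows from RefSeq on GRCh38.p14. Other pseudocounts, scalings, filters, thresholds and the sum of the AKR1C genes were tried as alternatives.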

Additional observations from a re-analysis of the deposited data

Results flagged for a closer look

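For 5 genes readable in both other lines, the log2 change at 16 h went in opposite directions in H460-ERT2-RUNX3-WT and H460 cells and differed by at least 2. With 1 library per condition every such difference is between single libraries and was not tested. The values in H460-ERT2-RUNX3-WT cells were -2.90 for EPHX1 (0.12 in H460), -2.42 for GSTM1 (0.03), -3.18 for GSTM2 (0.23), -2.89 for GSTM4 (0.30) and 1.82 for TXNIP (-0.53). All 5 rest on the 16 h library of H460-ERT2-RUNX3-WT, in which 14.5% of 11930 expressed genes were past a change of 2, and its part in these values was not tested. GSTM1, GSTM2 and GSTM4 may share reads, which was not measured here.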

How the results depend on the processing

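No paired analysis was possible because each condition had 1 library and no test was run. The median log2 change of the 9 genes, the counts of 0 genes past a change of 2 and all 18 single changes (9 genes at 2 times) moved by less than 0.1 under pseudocounts of 1 and 0.01, both rescalings and the filter on FPKM. The filter could not move these values, because all 9 genes pass it, and the pseudocounts hardly affect genes of this level. Each rescaling multiplies a whole library by 1 factor, so all 9 genes moved by nearly the same amount at each time. The 18 values are therefore not 18 separate checks. When the FPKM sums were made equal, the largest shift was 0.09, and the signs of AKR1C2 at 8 h and NQO1 at 16 h turned. On that scale the share of expressed genes lower by any amount was not worked out. With the AKR1C genes summed as 1 unit, 3 of 7 units were lower at 8 h, in place of 5 of 9. The counts over the whole table depended on low genes. Genes past a change of 2 numbered 98 higher and 198 lower at 8 h and 110 higher and 152 lower at 16 h. With a pseudocount of 1 these were 7, 13, 6 and 11, with 0.01 they were 415, 606, 466 and 530, among expressed genes alone 16, 53, 24 and 34, and with a threshold of 1 they were 551, 901, 617 and 668. The split between AKR1C1 and AKR1C2 could not be recomputed from FPKM.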
